A study of Juglans regia with 21 samples.

Results

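Oil body genes encode the proteins that coat the lipid droplets of seed cells. The 6 genes described here were taken by gene ID from the 31425 genes of the deposited walnut table, where NR or Swiss-Prot names them oleosin, peroxygenase (the caleosin family) or oil body-associated protein. All 6 had enough reads to be tested. The same names are carried by 10 genes in all, and the 4 that are not members are given where they pair with one that is.

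The samples were pellicle, the brown papery seed coat that wraps the kernel, of the field-grown *Juglans regia* cultivar Xinwen179. Libraries of poly(A) RNA were made at 8, 9, 11, 13, 15, 17 and 19 weeks after pollination, called 8W to 19W, with 3 libraries per stage and 21 in all. All groups share the cultivar and the tissue and differ in the labels by age alone, and no agent or allele is named. Totals ran from 13144713 to 17878761 reads per library. Nothing in the labels tells if replicates are separate trees, and p-values therefore describe variation among these 21 libraries, possibly of technical origin.

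An oil body holds a core of triacylglycerol inside a single layer of phospholipid. Oleosins sit in that layer with a long hydrophobic hairpin that dips into the oil, and they keep droplets small and apart from each other. Caleosins share this build, bind calcium and act as peroxygenases, enzymes that oxidise unsaturated fatty acids with the oxygen of a hydroperoxide. Oil body-associated proteins were described on maize and Arabidopsis seed oil bodies. These proteins are best known from the oil-storing embryo, which in walnut fills the kernel that the pellicle encloses.

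The 3 oleosin genes lie on different chromosomes of the assembly that the table uses, whose build is not given in the sources used here. Jr4SG00041800, called oleosin 4S here, is on chromosome 4S at 4127893 to 4128312 on the plus strand, in a gene model of 420 bases. Its closest Swiss-Prot entry in the table is the oleosin named for its mass in kilodaltons, and no Pfam domain is listed. Jr2DG00039300 (oleosin 2D) is on chromosome 2D at 3462391 to 3462855 on the minus strand, with a model of 465 bases, the Swiss-Prot name Oleosin 5 and the Pfam oleosin domain. Jr2SG00027600 (oleosin 2S) is on chromosome 2S at 2272084 to 2272344 on the minus strand, and carries the same Oleosin 5 name on a shorter model of 261 bases with no Pfam domain listed.

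The other 3 members have longer models. Jr1DG00194100 (peroxygenase 1) is on chromosome 1D at 38661061 to 38663299 on the minus strand, with 1461 bases. Jr3DG00180900 (probable peroxygenase 4) is on chromosome 3D at 27359218 to 27363449 on the plus strand, with 1482 bases, and both list the Pfam caleosin domain. Jr1SG00075800 (oil body-associated protein 1A, OBAP1A) is on chromosome 1S at 15080628 to 15081817 on the plus strand, with 977 bases. The table gives gene spans only, with no exons or untranslated regions.

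For 19W against 8W 5 of the 6 genes rose and peroxygenase 4 did not pass the test, where 77.8% of all genes tested were called, 39.0% higher and 38.8% lower. From 8W to 19W, oleosin 4S rose 239.6-fold and peroxygenase 1 122-fold in mean level. Oleosin 2S rose 131-fold, but its 8W level rests on 9 reads over the 3 libraries, so the size of that fold is uncertain. Oleosin 2D was highest at 11W, at 42.4 times its 8W level. OBAP1A had 0 reads at 8W and 9W and was at least 1429-fold higher at 19W than at 8W, against a floor of 3 reads per library. Peroxygenase 4 spanned 1.56-fold between its highest and lowest stage. In bulk RNA, fewer cells of a type and less RNA per cell cannot be told apart, so each level below is a share of the pellicle sample's reads.

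**Figure D1:**
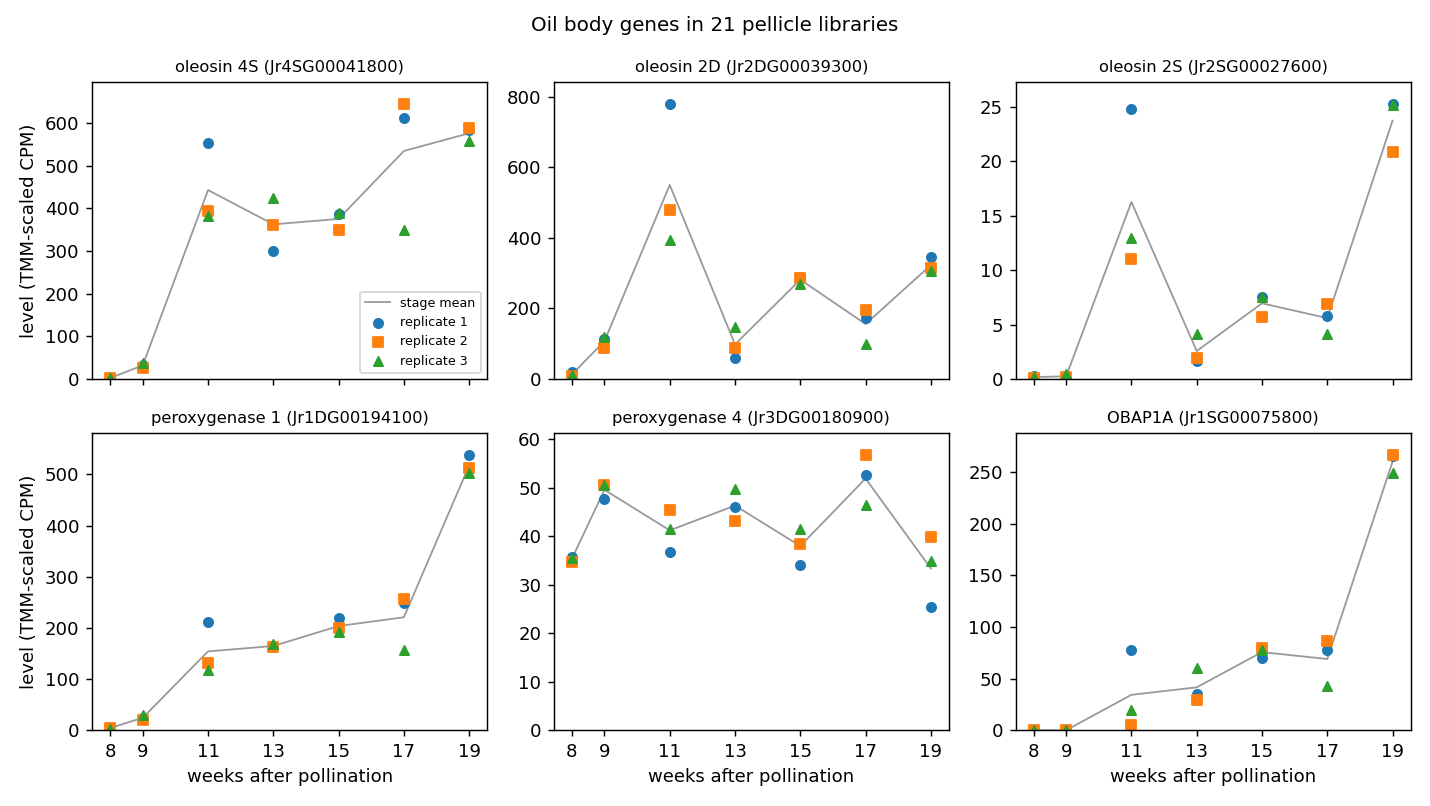
Level of each of the 6 oil body genes (TMM-scaled CPM, vertical axis from 0) against weeks after pollination; points are single libraries by replicate and the line joins stage means. Oleosin 4S jumps between 9W and 11W and stays up, both oleosin 5 genes dip at 13W, and peroxygenase 1 and OBAP1A are highest at 19W with every library above all earlier ones.

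Levels are given as CPM, reads scaled to a common library size with TMM factors, listed as replicates 1, 2 and 3, then as mean ± SD (n = 3). Oleosin 4S stood at 3.22, 1.98 and 2.01 CPM in the 8W libraries and at 33.6, 25.2 and 37.7 CPM in those of 9W. At 11W it stood at 552, 393 and 382 CPM. Every library of each of these stages lay above every library of the stage before. The edgeR quasi-likelihood test gave a log2 change of 3.74 ± 0.312 (SE) for 9W against 8W (adjusted p = 2.66e-08) and of 3.78 ± 0.238 for 11W against 9W (adjusted p = 8.05e-10).

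After 11W, oleosin 4S changed less from stage to stage. Its 13W libraries read 301, 362 and 425 CPM and its 15W libraries 386, 349.8 and 389. The values for 17W were 611, 643 and 348 CPM, and for 19W they were 582, 587 and 557. The 5 stages from 11W on overlapped from each to the next in order of level, from 575.5 ± 15.8 CPM at 19W down to 362 ± 61.9 CPM at 13W. All 19W libraries nevertheless lay above all those of 13W and 15W, and 19W was not tested against either stage. The changes of 13W against 11W (-0.29 ± 0.209, adjusted p = 0.236), 15W against 13W (0.05 ± 0.209, adjusted p = 0.863) and 19W against 17W (0.11 ± 0.208, adjusted p = 0.690) did not pass. For 17W against 15W the log2 change was 0.51 ± 0.209 (adjusted p = 0.0461). That call was lost under 4 of the other settings and on leaving out any 1 of 10 libraries (replicates 2 and 3 of 8W, 1 of 9W, 2 of 11W, each of 15W, 1 and 2 of 17W, or 1 of 19W), with log2 changes of 0.35 to 0.74 over all 21 such fits.

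Oleosin 2D rose to a peak at 11W, fell, and rose and fell again by smaller steps. Its 8W libraries read 18.7, 8.09 and 12.1 CPM, those of 9W read 114, 88.4 and 120.3, and those of 11W read 778, 478 and 394. The 3 stages did not overlap. The log2 change was 3.05 ± 0.389 for 9W against 8W (adjusted p = 5.39e-06) and 2.35 ± 0.348 for 11W against 9W (adjusted p = 2.40e-05).

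At 13W oleosin 2D was down to 58.6, 89.3 and 147 CPM, a log2 change of -2.49 ± 0.351 (adjusted p = 1.46e-05). The 15W libraries then read 289, 287 and 269 CPM, those of 17W read 173, 194 and 99.95, and those of 19W read 347, 315 and 307. Its order of stage means, 11W, 19W, 15W, then 17W, 9W and 13W with overlapping ranges, and 8W last, has no run of rising stages after 11W. The step up at 15W passed (1.52 ± 0.343, adjusted p = 0.00169). The step down at 17W (-0.85 ± 0.336, adjusted p = 0.0394) was lost on leaving out any 1 of 8 libraries (replicate 2 of 13W, each of 15W, 1 or 3 of 17W, or 2 or 3 of 19W). The step up at 19W (1.05 ± 0.337, adjusted p = 0.0158) was lost without replicate 3 of 17W (0.81, adjusted p = 0.0720).

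Oleosin 2S was the weakest of the 3 oleosins. It gave 0.243, 0.127 and 0.173 CPM for 8W and 0.0497, 0.217 and 0.512 for 9W, which is 9 reads over the 3 libraries of 8W and 14 over those of 9W. At 11W it gave 24.8, 11.0 and 12.9 CPM. The 8W and 9W ranges overlapped (0.45 ± 0.959, adjusted p = 0.701), and all 11W libraries stood above them. The log2 change of 11W against 9W was 5.97 ± 0.470 (adjusted p = 1.05e-09), and 6.88 without replicate 3 of 9W, which held 9 of the 14 reads.

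Oleosin 2S then read 1.64, 1.91 and 4.18 CPM in the 13W libraries and 7.57, 5.74 and 7.57 in those of 15W. Its 17W values were 5.77, 6.92 and 4.11 CPM, and its 19W values 25.2, 20.8 and 25.1. The 13W libraries all lay below the 11W ones, and the 19W libraries overlapped those of 11W. It fell by 2.65 on the log2 scale at 13W (adjusted p = 1.10e-06), rose by 1.43 ± 0.360 at 15W (adjusted p = 0.00250) and rose by 2.09 ± 0.314 at 19W (adjusted p = 1.27e-05). The change of 17W against 15W was -0.32 ± 0.331 (adjusted p = 0.425).

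Peroxygenase 1, a caleosin that in Arabidopsis is a seed oil body protein, climbed most up to 11W and again at 19W. Its values were 4.86, 4.52 and 3.34 CPM for 8W, 24.7, 19.4 and 29.0 for 9W, and 212, 132 and 119 for 11W. The 3 stages did not overlap, and the log2 changes were 2.52 ± 0.280 (adjusted p = 7.93e-07) and 2.66 ± 0.223 (adjusted p = 2.66e-08). The 13W libraries read 162, 163 and 169 CPM, those of 15W read 219, 199.8 and 192, and those of 17W read 249.6, 257 and 156. None of these 3 steps passed the test, with log2 changes of 0.10 ± 0.203, 0.31 ± 0.203 and 0.12 ± 0.202. Its stage means still rose from 154 CPM at 11W to 221 at 17W, and all 15W libraries lay above all those of 13W. A contrast of 17W against 11W was not tested. At 19W it stood at 537, 513 and 503 CPM, above every library of every earlier stage, and rose by 1.23 ± 0.203 on the log2 scale over 17W (adjusted p = 8.88e-05).

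Peroxygenase 4 differed from the other 5 in size of change. In Arabidopsis the caleosin of this name is active outside seeds. Its libraries, in replicate order, read 35.8, 34.6 and 35.6 CPM for 8W, 47.6, 50.6 and 50.5 for 9W, and 36.8, 45.4 and 41.4 for 11W. For 13W they read 46.0, 43.2 and 49.8 CPM, for 15W 34.1, 38.3 and 41.6, for 17W 52.7, 56.7 and 46.4, and for 19W 25.4, 39.8 and 34.9. Each stage overlapped the next in order of level, from 17W (51.9 ± 5.19 CPM) to 19W (33.4 ± 7.34 CPM). It rose at 9W (0.49 ± 0.114, adjusted p = 0.000680) and at 17W (0.45 ± 0.116, adjusted p = 0.00194) and fell at 19W (-0.64 ± 0.118, adjusted p = 8.16e-05). Smaller falls at 11W (-0.27 ± 0.114, adjusted p = 0.0444) and 15W (-0.29 ± 0.116, adjusted p = 0.0438) were each close to the threshold. The first was lost on leaving out any 1 of 8 libraries (replicates 2 and 3 of 8W, each of 9W, 1 and 3 of 11W, or 1 of 13W), and the second on leaving out any 1 of 7 (2 and 3 of 8W, 3 of 9W, 1 and 3 of 13W, or 1 and 2 of 15W).

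For 19W against 8W, the change of peroxygenase 4 was -0.08 ± 0.118 (adjusted p = 0.538). With library sizes alone, a scaling that moves the median of all genes in this comparison from -0.01 to -0.34, it was -0.42 (adjusted p = 0.00296). Most of the distance between these values is the shift of that median. Without replicate 2 of 19W the change was -0.28 (adjusted p = 0.0399), and without replicate 1 of 19W it was 0.08.

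OBAP1A gave 0 reads in all 6 libraries of 8W and 9W. It then stood at 78.1, 5.51 and 19.3 CPM at 11W, the widest spread of any member in any stage, with a ratio of 14.2 between the highest and the lowest library. At 13W it read 34.7, 29.1 and 60.7 CPM. The 11W libraries straddle those of 13W. At 11W it was at least 213-fold higher than at 9W (adjusted p = 0.000512), and at least 77.0-fold higher without replicate 1 of 11W.

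The later OBAP1A values were 69.6, 79.6 and 77.8 CPM for 15W, 77.2, 86.6 and 43.0 for 17W, and 265, 266 and 249 for 19W. All 19W libraries lay above all earlier ones. Below them, in order of level, 15W overlapped 17W, 17W overlapped 13W and 13W overlapped 11W, while the 13W and 15W libraries were apart. The changes of 13W against 11W (0.28 ± 0.676, adjusted p = 0.730), 15W against 13W (0.87 ± 0.657, adjusted p = 0.301) and 17W against 15W (-0.14 ± 0.643, adjusted p = 0.875) did not pass, and the first became 1.72 (adjusted p = 0.0141) without replicate 1 of 11W. The log2 change of 19W against 17W was 1.92 ± 0.644 (adjusted p = 0.0270). Leaving out replicate 1 or 3 of 17W, or any 1 library of 19W, put that adjusted p between 0.0515 and 0.0907, with log2 changes of 1.67 to 1.99.

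**Figure D2:**
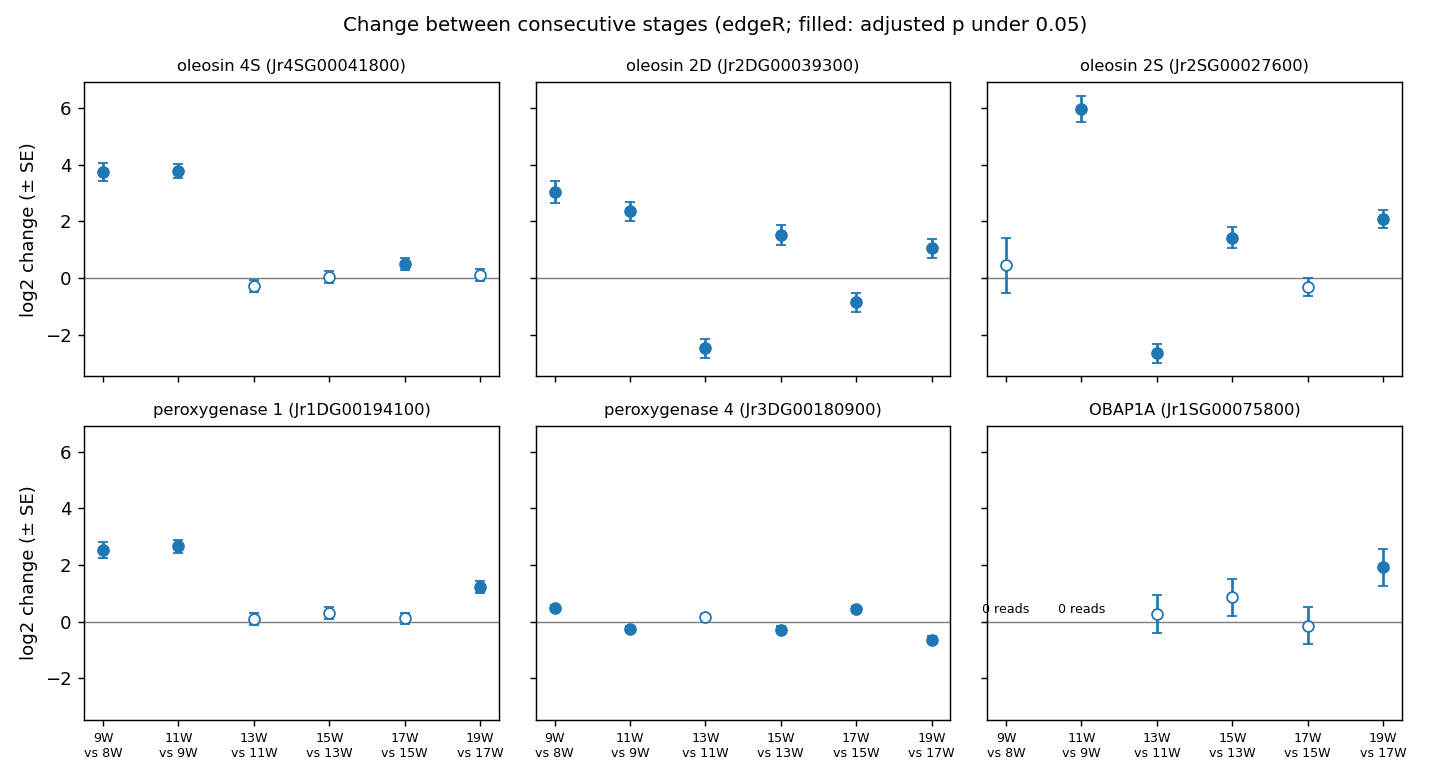
Log2 change with its standard error (vertical axis) between each pair of consecutive stages for the 6 oil body genes; filled points have an adjusted p under 0.05, and OBAP1A has no point where the earlier stage held 0 reads. Changes above 3 on the log2 scale stand at 9W and 11W, the oleosin 5 genes fall at 13W (-2.49 and -2.65), and the changes of peroxygenase 4 are all between -0.64 and 0.49.

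Counted over the members, 4 of 6 rose and 0 fell at 9W against 8W, where 65.5% of all 21707 genes tested were called, 34.4% higher and 31.1% lower. At 11W against 9W 5 rose and peroxygenase 4 fell, beside 65.9% of all genes called, 34.3% higher and 31.6% lower. At 13W against 11W 0 rose and both oleosin 5 genes fell, beside 67.1% called, 32.1% higher and 35.0% lower. At 15W against 13W 2 rose and 1 fell (51.1% of all genes called, 24.8% higher, 26.3% lower). At 17W against 15W 2 rose and 1 fell (60.1% called, 29.3% higher, 30.8% lower), and at 19W against 17W 4 rose and 1 fell (54.5% called, 28.5% higher, 26.1% lower). For 19W against 8W 5 of 6 rose and 0 fell, beside 77.8% of all genes called, 39.0% higher and 38.8% lower. Called shares of the members lie near those of all genes in several comparisons. The median log2 change of the members, with OBAP1A at its fitted value, was 1.51, 3.22, -0.10, 0.59, -0.01 and 1.14 for the 6 steps from 9W against 8W to 19W against 17W, in that order, and 6.95 for 19W against 8W. At 9W against 8W OBAP1A had 0 reads in both stages, so it could not be called, and its fitted value of 0 lowers that median. The medians of all genes were 0.04, 0.02, -0.04, -0.02, -0.03, 0.02 and -0.01 in the same order, so at 13W and 17W the members' median was close to that of all genes.

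All 6 members changed over the 7 stages in the F-test, as did 97.7% of all genes tested. Their adjusted p ran from 2.85e-12 for oleosin 4S to 5.23e-05 for peroxygenase 4. For 19W against 8W the log2 changes were 7.90 ± 0.316 for oleosin 4S (adjusted p = 8.28e-13), 6.96 ± 0.497 for oleosin 2S (adjusted p = 9.16e-11), 6.93 ± 0.283 for peroxygenase 1 (adjusted p = 1.11e-12) and 4.63 ± 0.405 for oleosin 2D (adjusted p = 3.76e-08). OBAP1A passed as well (adjusted p = 1.40e-05).

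Levels of different genes were compared per length, as the deposited FPKM. At 8W oleosin 2D led at 31.1 ± 13.1 FPKM, overlapping peroxygenase 4 at 26.6 ± 0.548 FPKM, while oleosin 4S stood at 6.38 ± 1.94 FPKM. At 11W oleosin 2D (1211 ± 428 FPKM) and oleosin 4S (1080.3 ± 216 FPKM) overlapped, and the next member was peroxygenase 1 at 108 ± 33.7 FPKM. From 13W on, oleosin 4S led in every stage with no overlap with the next member. At 19W all 6 were apart: oleosin 4S had 1210.3 ± 29.2 FPKM, oleosin 2D 613 ± 37.8, peroxygenase 1 313 ± 9.42, OBAP1A 235 ± 7.86, oleosin 2S 80.3 ± 8.57 and peroxygenase 4 19.9 ± 4.41. Peroxygenase 4 was thus among the most abundant members at 8W and the least abundant at 19W.

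The 2 oleosin 5 genes kept their order at every stage but not their ratio. Of the reads of both, oleosin 2S held 1.41% ± 0.134 at 8W and 0.237% ± 0.190 one week later. For 11W, 13W and 15W the shares were 2.84% ± 0.511, 2.53% ± 0.383 and 2.42% ± 0.407, and for 17W and 19W they were 3.53% ± 0.372 and 6.85% ± 0.689. The 19W share was the highest. In FPKM oleosin 2D was 39.4 ± 3.79 times oleosin 2S at 8W, 549 ± 641 times at 9W and 7.68 ± 0.820 times at 19W. The 8W libraries held 4, 2 and 3 oleosin 2S reads and the 9W libraries 1, 4 and 9, so both early ratios are uncertain. The SDs at 8W do not include this counting error. For replicate 2 of 8W, the Wilson interval of the share ran from 0.426% to 5.48%. The lowest bound of the 19W libraries was 5.52%. The mean log2 ratio of 2S to 2D reads was higher by 2.13 at 19W than at 8W, and the ratio was higher in all 9 pairs of libraries. The 2-sided exact permutation p was 0.1, the smallest that 3 against 3 libraries allow. How alike the 2 sequences are could not be read from the files, so reads of one copy may be counted to the other.

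A second caleosin gene named probable peroxygenase 4, Jr3SG00057500 on chromosome 3S, gave values unlike those of the member on 3D. Its stage means, in order from 8W to 19W, were 35.0, 55.9, 76.2, 323, 310.4, 564 and 425 CPM, with a log2 change of 3.60 ± 0.109 for 19W against 8W (adjusted p = 1.20e-18). Of the reads of both genes, the 3D member held 50.3% ± 0.886, 47.0% ± 1.99 and 35.4% ± 3.03 in the first 3 stages, then 12.5% ± 0.252 for 13W, 10.9% ± 1.29 for 15W, 8.41% ± 0.259 for 17W and 7.34% ± 1.87 for 19W. The pair was thus even at 8W, and the 3S gene held most of the reads from 11W on. The log2 ratio of 3D to 3S reads was lower by 3.71 at 19W than at 8W (mean log2 ratios of -3.69 and 0.02, exact permutation p = 0.1, the smallest possible). The same caution on shared reads holds for this pair.

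**Figure D3:**
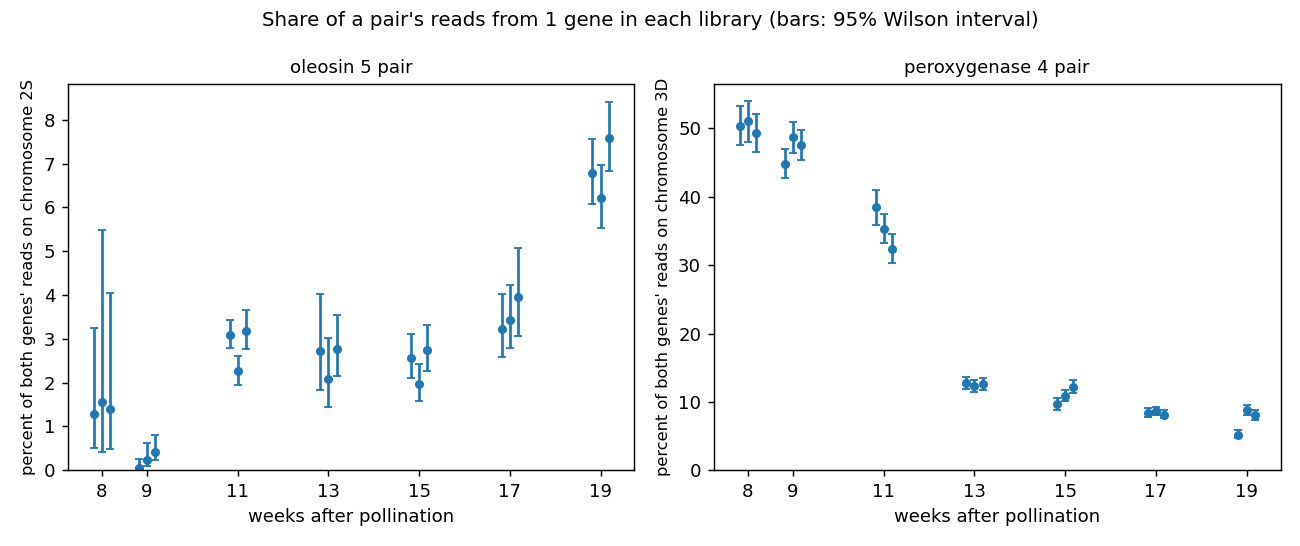
Percent of a pair's reads that came from 1 of its 2 genes (vertical axis from 0) against weeks after pollination, for oleosin 2S of the oleosin 5 pair and the 3D gene of the peroxygenase 4 pair; points are single libraries and bars 95% Wilson intervals, which cover counting error only. The oleosin 2S share is highest at 19W, at 6.85% on average, and the 3D share goes from 50.3% at 8W to 7.34% at 19W.

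Other genes with oil body or lipid droplet names were gathered by name into a list of 24 with the members, 21 of them tested. Of the 15 tested genes that are not members, 12 rose and 3 fell for 19W against 8W, with a median log2 change of 2.04. Of all genes tested, 39.0% were called higher and 38.8% lower in this comparison, and these shares stand beside every list count for it below. At 11W against 9W 13 rose and 1 fell, with a median of 0.88, beside 34.3% of all genes higher and 31.6% lower. At 13W against 11W 7 rose and 7 fell, beside 32.1% higher and 35.0% lower. OBAP2A (Jr5DG00122900) averaged 0.477 CPM for 8W and 346 for 19W, a log2 change of 9.46 ± 0.287, and OBAP2B (Jr5SG00102000) changed by 6.32 ± 0.473. A second OBAP1A gene, Jr5DG00040600 on chromosome 5D, gave 0 reads in all 21 libraries.

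Among these other genes, seipin-1 (Jr4DG00089800) had the same peak stage as oleosin 2D, as did Jr4DG00022700, Jr2DG00015600 and Jr4SG00159400. Seipins act at the endoplasmic reticulum, where lipid droplets form. The means of seipin-1 were 0.643 CPM for 8W, 71.3 for 11W and 41.2 for 19W, with a log2 change of 5.98 ± 0.389 for 19W against 8W. Both genes named 11-beta-hydroxysteroid dehydrogenase-like 5, the steroleosin family of oil body proteins, rose (6.01 ± 0.335 for Jr2SG00010500 and 3.29 ± 0.382 for Jr2DG00015600), and a 1B-like relative, Jr6SG00010800, rose by 1.68 ± 0.153.

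Rubber elongation factor-like genes code for lipid droplet-associated proteins that coat droplets in leaves and other non-seed tissue. Jr4DG00023000 of this family was highest at 17W, at 1039.9 CPM, with 44.4 for 8W and 546 for 19W, and rose by 3.62 ± 0.115 on the log2 scale from 8W to 19W. Jr4DG00022700 rose by 2.04 ± 0.110, and Jr4SG00159500 by 0.71 ± 0.0840. Jr3SG00116700 rose by 0.29 ± 0.0612, but its change was -0.05 with library sizes alone. Jr4SG00159400, named stress-related protein, rose by 0.89 ± 0.366 (adjusted p = 0.0303). That call was lost with upper-quartile factors, with library sizes alone, without replicate 1 or 2 of 8W, and without any 1 library of 19W. The 3 falls were those of seipin-2 (Jr5DG00125600, -0.45 ± 0.105) and of the lipid droplet-associated hydrolase genes Jr5DG00016800 (-1.39 ± 0.0853) and Jr5DG00016700 (-1.78 ± 0.154).

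**Figure D4:**
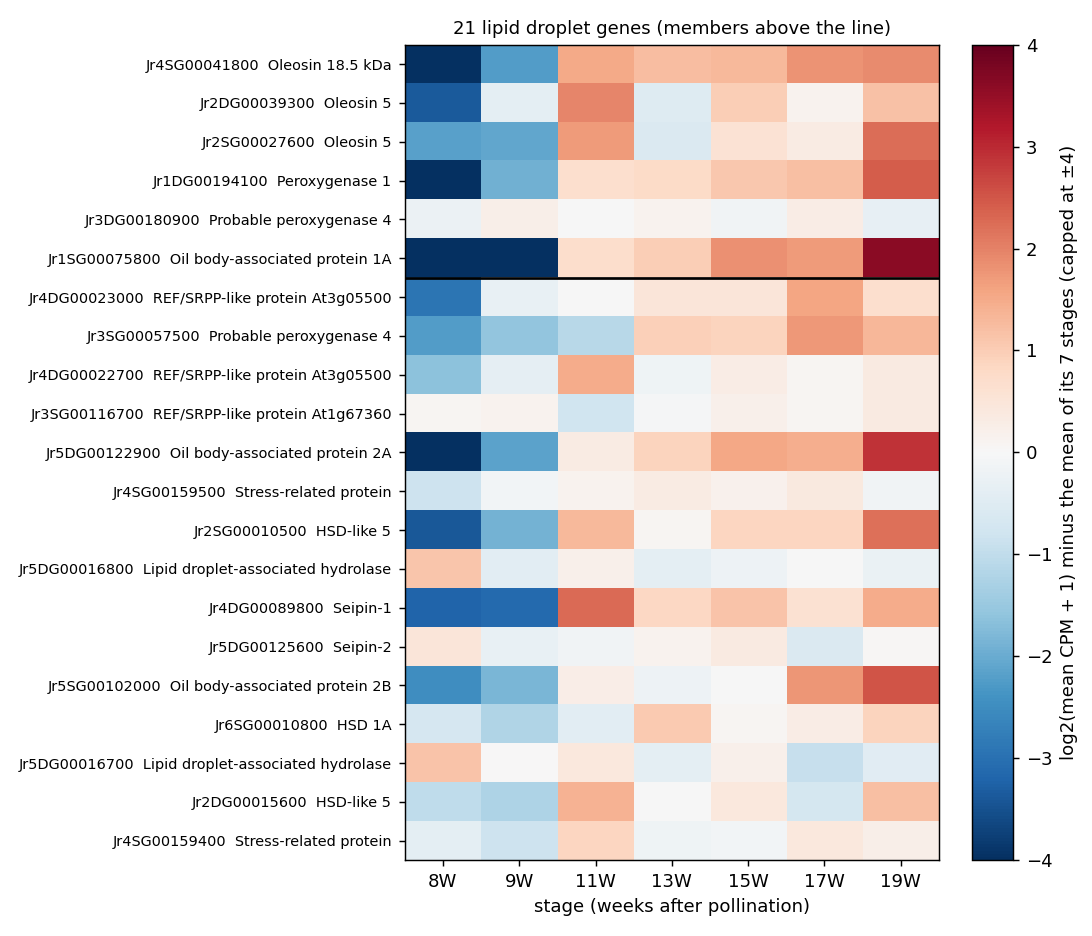
Stage means of 21 oil body and lipid droplet genes as log2(CPM + 1) minus the gene's own mean over the 7 stages (colour, limited to ±4), with the 6 members above the line. Of the 20 genes other than peroxygenase 4 on 3D, most are blue at 8W, while both lipid droplet-associated hydrolases and seipin-2 are red there.

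The genes that make, store beside or break down oil were counted by name. For 19W against 8W, 16 rose and 26 fell of 53 tested fatty acid synthesis genes (60 named, median log2 change -0.37; 9 rose with library sizes alone), and 11 rose and 12 fell of 30 tested triacylglycerol assembly genes (42 named, median 0.02). Neither list moved in one direction as a whole, and the assembly counts lie near the shares of all genes tested (39.0% higher, 38.8% lower). At 11W against 9W, where all 3 oleosins rose, 28 fatty acid synthesis genes rose and 9 fell (median 0.42), beside 34.3% of all genes higher and 31.6% lower. At 13W against 11W 5 rose and 37 fell (median -0.76), beside 32.1% higher and 35.0% lower. The microsomal omega-3 desaturase Jr7DG00071700, which makes linolenic acid, rose by 4.12 ± 0.183 from 8W to 19W. The acyl carrier protein gene Jr1DG00170300 rose by 0.78 ± 0.132. Of the assembly list, phosphatidylcholine:diacylglycerol cholinephosphotransferase (Jr1DG00256900) rose by 1.98 ± 0.0965 and the acyltransferase Jr5SG00029000 changed by -0.39 ± 0.0512.

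Of 25 tested genes of lipid breakdown (31 named), 16 rose and 6 fell for 19W against 8W, with a median log2 change of 0.71, and 10 fell with library sizes alone. The list holds 3 genes named N-acetyl-alpha-D-glucosaminyl L-malate synthase, which are no lipid breakdown enzymes. The thiolase of peroxisomal beta-oxidation Jr1SG00083500 rose by 2.21 ± 0.0736, and the acyl-CoA oxidase Jr6SG00063100 by 0.82 ± 0.0686. Of 17 tested seed maturation regulators (18 named), 11 rose and 4 fell (median 0.63). The 2 with most reads, both named ABSCISIC ACID-INSENSITIVE 5-like protein 5, moved in opposite directions, by 0.83 ± 0.0870 for Jr3SG00171200 and -0.39 ± 0.0632 for Jr3DG00039900. That list also holds SUPPRESSOR OF ABI3-5 genes, which in Arabidopsis code for a splicing factor.

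Transcripts named for seed storage proteins, best known from the kernel, were present in these pellicle libraries. Their summed level rose at 9W, 11W and 19W, as several oil body genes did, but the 2 differed in other steps. The 19 genes named for seed storage proteins summed to 332, 187 and 250.3 CPM in the 8W libraries, 951, 804 and 1123 in those of 9W, and 26356, 14025 and 12289 in those of 11W. Their sums were 4258, 6480 and 14174 CPM for 13W, 8597, 11744 and 8494 for 15W, 4233, 4630 and 2730 for 17W, and 21475, 21118 and 16853 for 19W. Over all libraries, a few genes held most of these reads. Jr1DG00211500 had 983966 and Jr1DG00199500 605276, while Jr1DG00031300 and all genes ranked below it had at most 28414 each. The sum thus mainly follows a few genes and need not show the course of all 19. Both the storage sum and oleosin 2D were thus low at 8W and 9W, high at 11W and 19W, and lower between. At 13W oleosin 2D was near its 9W level (means of 98.2 and 108 CPM). The storage sum at 13W was well above its own 9W level (8304 and 959 CPM). From 15W to 17W the storage sum went from 9612 to 3865 CPM. Of the 12 storage genes tested, 4 rose and 7 fell there, beside 29.3% of all genes higher and 30.8% lower. In that step the log2 changes were 0.51 for oleosin 4S, 0.12 for peroxygenase 1, -0.14 for OBAP1A and 0.45 for peroxygenase 4. Those of oleosin 2D and oleosin 2S were -0.85 and -0.32. The changes of peroxygenase 1, OBAP1A and oleosin 2S did not pass the test. The calls of oleosin 4S and oleosin 2D were lost on leaving out certain single libraries. Of the 19 genes, 4 to 7 had 0 reads in a given stage, and 10 of the 12 tested rose for 19W against 8W (median log2 change 8.88, or 8.73 with genes at 0 reads put at their bound), among them a vicilin-like gene (Jr1DG00211500, 8.00 ± 0.489) and legumin B (Jr1DG00199500, 5.13 ± 0.659). Of the 19, 6 are named for a superfamily that joins lipid-transfer proteins with 2S albumins, and these need not be storage proteins.

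Within stages, the highest and lowest libraries for storage genes were set beside those of each member. No such count was made over all genes, so a link particular to the members cannot be read from it. The library with the most storage reads of its stage was also the highest for oleosin 2D, oleosin 2S and peroxygenase 1 in 6 of 7 stages each, for oleosin 4S in 5 of 7, for OBAP1A in 4 of the 5 stages with reads, and for peroxygenase 4 in 3 of 7. The library with the fewest was the lowest for oleosin 2D in 7 of 7 stages, for oleosin 4S and peroxygenase 1 in 6 each, for oleosin 2S in 3, for OBAP1A in 2 of 5 and for peroxygenase 4 in 2. At 11W, replicate 1 was the highest library for storage genes and for each member except peroxygenase 4, and at 17W replicate 3 was the lowest for storage genes and for all 6 members. These libraries also stood apart over genes at large. The chi-square per degree of freedom was 20.8 and 27.0 for 11W replicate 1 against replicates 2 and 3, and 5.95 between those. For 13W replicate 3 it was 9.95 and 12.8 against replicates 1 and 2, and 5.53 between those. For 17W replicate 3 it was 7.05 and 8.34 against replicates 1 and 2, and 3.47 between those. Whether the storage reads come from kernel tissue or from the seed coat was not tested, nor was their part in the members' levels.

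**Figure D5:**
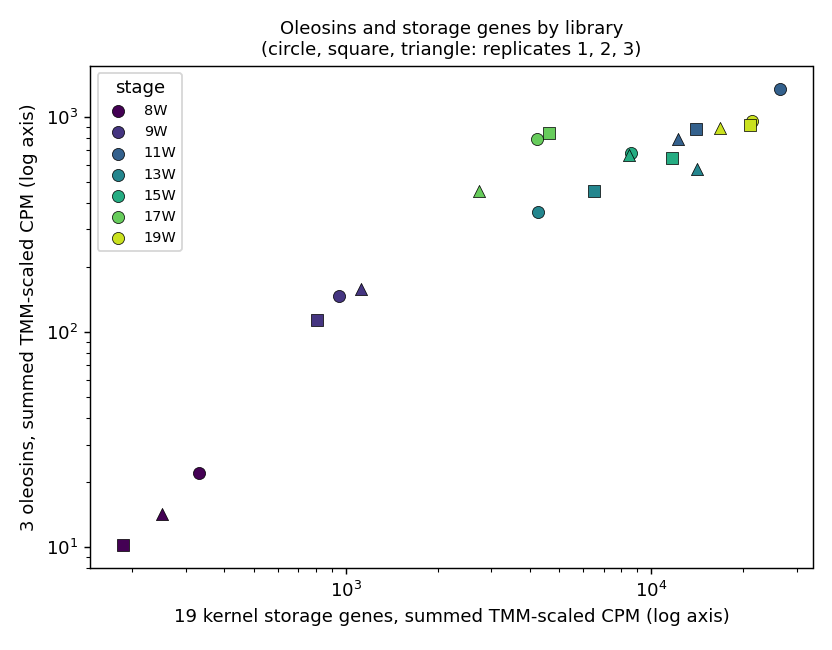
Summed level of the 3 oleosins (vertical, CPM, log axis) against that of 19 kernel storage genes (horizontal, CPM, log axis) in each of 21 libraries, coloured by stage. A few of the 19 genes hold most of the storage reads. The 8W and 9W libraries lie at the lower left, and the 17W libraries lie left of those of 19W, with 2730 to 4630 CPM of storage reads against 16853 to 21475.

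From 17W to 19W the 3 oleosins differed among themselves beside the storage genes: oleosin 2S and oleosin 2D rose, by 2.09 and 1.05 on the log2 scale, and oleosin 4S did not pass the test. The storage sum was 3865 ± 1002 CPM for 17W and 19815 ± 2572 for 19W, and the 3 oleosins together, most of whose reads are those of oleosin 4S, stood at 695.5 ± 212 and 922 ± 32.4 CPM. Late embryogenesis genes, which include dehydrins and other desiccation proteins, summed to 542 ± 18.2 CPM for 8W, 2721 ± 304 for 11W, 6760.4 ± 364 for 17W and 6462 ± 228 for 19W. Of the 30 tested (37 named), 24 rose and 2 fell for 19W against 8W (median log2 change 4.81, or 4.80 with bounds), among them dehydrin ERD14 (Jr4DG00147900, 2.54 ± 0.0872) and dehydrin 2 (Jr4SG00068600, 3.33 ± 0.127). That list also took in 9 hydroxyproline-rich glycoproteins that carry the late embryogenesis name.

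Markers of the seed coat itself were present in every stage. The 26 genes named anthocyanidin reductase, leucoanthocyanidin reductase (4 genes) or transparent testa (18 genes, 14 of them the transporter TRANSPARENT TESTA 12 or like it) summed, from 8W to 19W, to 317 ± 9.57, 385 ± 17.9, 223 ± 13.9, 154 ± 8.25, 156 ± 18.8, 125 ± 7.04 and 231 ± 26.3 CPM, and 4 to 7 of them had 0 reads in a given stage. Of 18 tested, 3 rose and 10 fell for 19W against 8W (median log2 change -0.75), and 5 rose in DESeq2. Anthocyanidin reductase (Jr5DG00075400), which makes the building blocks of seed coat tannin, rose by 1.97 ± 0.128, and TRANSPARENT TESTA 16 (Jr3DG00159800) changed by -2.58 ± 0.105. The summed levels of 3 genes of the clock protein LHY, which peaks near dawn, were, from 8W to 19W, 28.9, 501.5, 41.6, 359, 208, 95.7 and 392 CPM. The part of the time of day in the members' levels was not tested.

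The genes whose course over the 21 libraries was most like that of each member were found by Pearson correlation of log2(CPM + 1). The points share the stage differences that most genes follow, so these values only describe. Oleosin 4S was most like an SPX domain gene (Jr5DG00023000, r = 0.981, Spearman rho = 0.799), and its list of 5 held a seed storage gene (Jr2DG00249800, r = 0.979, rho = 0.746) and peroxygenase 1 (r = 0.978, rho = 0.904). Peroxygenase 1 was most like OBAP2A (r = 0.992, rho = 0.946) and a glucose and ribitol dehydrogenase (Jr4DG00017600, r = 0.990, rho = 0.925), which was also among the 5 of oleosin 4S (r = 0.979, rho = 0.882).

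OBAP1A was most like an MLP-like protein 423 gene (Jr2SG00117600, r = 0.988, rho = 0.955) and had in its 5 the aquaporin TIP3-2 (Jr8SG00074600, r = 0.974, rho = 0.943), of a family known from seed storage vacuoles, and a seed maturation protein (Jr5DG00028300, r = 0.974, rho = 0.907). Oleosin 2D was most like a GDP-mannose pyrophosphorylase gene (Jr1SG00178000, r = 0.952, rho = 0.909), and its 5 held the droplet gene Jr4DG00022700 (r = 0.932, rho = 0.922). Oleosin 2S was most like a gene named only as transcription factor-related (Jr5SG00058000, r = 0.974, rho = 0.975). The highest r of peroxygenase 4 with a tested gene that has a product name was 0.856, for a mitochondrial Rieske subunit (Jr2DG00001000, rho = 0.840), and that r was 0.916 with library sizes alone.

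Between members, the correlation was highest for oleosin 4S with peroxygenase 1 and for peroxygenase 1 with OBAP1A (r = 0.939, rho = 0.960). The 2 oleosin 5 genes gave r = 0.834 and rho = 0.904. Peroxygenase 4 gave r between -0.300 and 0.132 with the other 5.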

How the data were processed

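Pellicle RNA of 7 stages with 3 libraries each was sequenced as paired, strand-specific poly(A) libraries, per the labels' protocols. The labels' protocol speaks of 16 libraries, and all 21 labelled samples were used. The tools listed, per the submitters' processing notes, are HISAT2, Cufflinks, DESeq2 and FastQC, with no role stated. Not given in the sources used here are the genome build, annotation, read counter and use of strand, so reads of near-identical copies, or of overlapping and antisense genes, may be split or shared. The deposited table holds whole read counts per gene and library, not normalized, and FPKM values that the authors derived from them: count over length and column total returns each FPKM within a relative deviation of 5.15e-15. Of its 31425 genes, 5183 had 0 reads. No ID matched the separate RefSeq gene table (0 matches), and no sequences were used.

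Genes passing filterByExpr by stage (minimum count 10) were tested in edgeR 4.0.16 (limma 3.58.1, R 4.3.3) with TMM scaling and a robust quasi-likelihood fit of 1 coefficient per stage over all 21 libraries, with 2-sided contrasts. Benjamini-Hochberg adjustment ran over 21707 genes, with a threshold of 0.05. A standard error is the size of a log2 change divided by the square root of F. The biological coefficient of variation was 0.102 and TMM factors ran from 0.880 to 1.14. Folds against stages with 0 reads are bounds against 3 reads per library. Ratios within a pair of genes used 0.5 added reads. Intervals (95% Wilson) and floors cover counting error only. The scripts were tested on simulated counts. Replicate pairs differed by more than sampling noise (chi-square divided by its degrees of freedom, 3.07 to 27.0), and none were merged.

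The members and the 9 gene lists were chosen with earlier results of these data known. Lists match the NR product or, where NR names none, that of Swiss-Prot (either one for oil body genes). The patterns for late embryogenesis and lipid breakdown, were narrowed after the files were seen, from names and not values. Named genes are the members, the 12 tested genes of the oil body list with most reads beyond them, the 2 tested genes with most reads of every other list, and the 5 genes with a product name most like each member. Jr5DG00016700, Jr2DG00015600, Jr4SG00159400, Jr5DG00040600 and Jr1DG00031300 are named outside that rule, after their values were seen. Alternatives were other size factors (RLE, upper-quartile, library sizes alone), testing without a filter or with at least 1 CPM in 3 libraries, DESeq2 1.42.0, a replicate block, fits of the 6 libraries compared, and leaving out each library.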

Additional observations from a re-analysis of the deposited data

How the results depend on the processing

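Over 187 results, 4361 values under other settings were compared with those reported. Of those for the members, the oil body list and the counts of all genes, 2118 kept their direction and side of the threshold (or, for a count or level, their size), 46 lost the call, 5 gained one, 12 changed sign and 21 moved. With equal replicate numbers, deviations from stage means correlated by -0.0838 to 0.0617 over 63 pairs of libraries. With different numbers they correlated by -0.0957 to 0.0776 over 126 pairs. Libraries of equal number were thus no more alike, but whether they share a tree or a day cannot be told from this. A replicate block ended 2 calls of members: oleosin 4S at 17W against 15W (0.50) and oleosin 2D at 17W against 15W (-0.86). Oleosin 4S at 17W against 15W was also lost with upper-quartile factors (0.47), without the filter (0.52) and with 6 libraries (0.52), and oleosin 2D there without the filter (-0.84). With library sizes alone, oleosin 4S at 19W against 17W was -3.3e-06 and the highest stage means were 508 CPM (at 17W) for oleosin 4S, 20.96 for oleosin 2S, 457 for peroxygenase 1 and 229.6 for OBAP1A. Peroxygenase 4 passed for 19W against 8W with that scaling (-0.42) and with upper-quartile factors (-0.29), and was lost at 15W against 13W with DESeq2 (-0.28). Peroxygenase 1 passed at 15W against 13W with 6 libraries (0.32). Of the oil body list, 11 rose at 15W against 13W with 6 libraries against 7, and 1 fell with DESeq2 against 2. For 19W against 8W, Jr2DG00001000 was at -0.16 with upper-quartile factors, -0.28 with library sizes alone, -0.012 without replicate 1 of 8W and, over each library left out, from -0.047 to 0.085, Jr1DG00060100 at 0.018 without replicate 1 of 19W, and Jr3SG00116700 at -0.045 with library sizes alone. The likeness r of peroxygenase 4 with Jr7DG00102800 and Jr4SG00109800 was 0.888 and 0.870 with that scaling, which was added after the data were seen.

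Leaving out each library gave these lowest and highest log2 changes where a call or direction moved. Oleosin 4S ran from -0.068 to 0.18 at 15W against 13W, 0.35 to 0.74 at 17W against 15W and -0.12 to 0.26 at 19W against 17W. Oleosin 2D ran from -1.05 to -0.62 at 17W against 15W and 0.81 to 1.24 at 19W against 17W, and oleosin 2S from -0.46 to 0.96 at 9W against 8W. Peroxygenase 1 ran from -0.091 to 0.36 at 13W against 11W and -0.0080 to 0.31 at 17W against 15W. Peroxygenase 4 ran from -0.34 to -0.22 at 11W against 9W, -0.35 to -0.21 at 15W against 13W and -0.28 to 0.081 at 19W against 8W. OBAP1A ran from -0.23 to 1.72 at 13W against 11W, -0.34 to 0.11 at 17W against 15W and 1.67 to 2.12 at 19W against 17W. Of the oil body list, 1 to 2 genes fell at 11W against 9W and 1 to 2 at 15W against 13W. The cause of these changes was not tested. The few reads of oleosin 2S at 8W and 9W, and of OBAP1A before 11W, limit what their early levels can show.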
